A study of Mus musculus with 8 samples.

Results

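The genes described here are 9 nuclear genes for chaperones and proteases of the mitochondrion, out of 21859 gene IDs in the count table. They were chosen by name, as effectors usually listed for the mitochondrial unfolded protein response, and all 9 had a row in the table and passed the filter on low counts. The chaperones are Hspd1, Hspe1, Hspa9 and Trap1. The proteases are Lonp1, Clpp with its partner Clpx, Afg3l2 and Yme1l1.

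RNA was sequenced from 8 samples of 1 mouse leukaemia line, PER-M60, 4 labelled as kept in control media and 4 in medium conditioned by osteoclasts, the cells that resorb bone. Genotype, mouse strain and culture time are not given in the sources used here, and 1 line does not speak for other leukaemias. The comparison asks how the conditioned medium alters gene expression in the leukaemia cells. The series' design text names 4 test and 4 control cultures, but the labels do not say how far the replicates were kept separate. The p-values therefore measure only the spread between these samples, which may be technical.

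Proteins made in the cytosol enter mitochondria unfolded and have to be folded in the matrix or destroyed there. When this fails, cells can raise matrix chaperones and proteases, a programme called the mitochondrial unfolded protein response, in which the transcription factors ATF5, ATF4 and CHOP (the product of Ddit3) have been given roles in mammals. ATF4 is also the main factor of the integrated stress response, which raises amino acid and folate enzymes, several of them mitochondrial.

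Total counts per sample lay between 15391754 and 21637966, and a floor of 3 counts corresponded to 0.139 to 0.195 CPM, the unit of counts after scaling for library size; floors cover counting error only. The member with the fewest counts, Clpp, had 496 to 761 raw counts per sample, and the member with the most, Hspd1, had 14307 to 20002. Of 10 B-lineage markers, 9 passed the filter, and their summed level was 3972 to 3995 CPM in control and 4211 to 4231 CPM in conditioned medium, with 5 called higher and 1 lower; Rag1, which lies inside another gene of the table, was at 0. Of 10 osteoclast markers, 2 passed, and their sum was 35.8 to 37.2 CPM in control and 34.4 to 37.9 CPM in conditioned medium, with Itgb3 called lower and Dcstamp and Ocstamp at 0 in every sample. Macrophage markers summed to 20.6 to 22.0 and 21.4 to 25.1 CPM, with 3 of 7 passing, Lyz2 called higher and Cd14 and Itgam at 0. Of Itgam's span, 99.9% lies within Gm49368, another gene of the table, as do 68.7% of its exonic bases in exons of that gene. The 4 T cell markers, with Cd3g and Cd8a at 0, summed to at most 0.153 CPM. The 5 stromal markers summed to 279 to 285 and 293 to 305 CPM, nearly all of it Alpl, which was called higher, with Col1a2 and Cxcl12 at 0. The part of the B-lineage, Itgb3, Lyz2 and Alpl shifts in the results below was not tested. In such bulk samples, fewer cells of a type and less RNA per cell cannot be told apart.

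Hspd1 and Hspe1 are shown first because they lie head to head and share a promoter. Hspd1, the matrix chaperonin that encloses unfolded proteins, is ENSMUSG00000025980 on the minus strand of chromosome 1 (55077835 to 55088243, GRCm38). Hspe1, the lid of that chaperonin, is ENSMUSG00000073676 on the plus strand (55088132 to 55091307). Their spans overlap at the 5′ ends, and 4.24% of Hspd1's exonic bases and 7.6% of Hspe1's lie in exons of the other gene. RefSeq (GRCm38.p6) gives an inner start site of Hspd1 at 55087932, which is 216 bases from the Hspe1 start at 55088148. Part of the stretch between them is printed on the plus strand with capitals on overlapping copies of TTCNNGAA and GAANNTTC, the paired units of the heat shock element (30 bases, chr1:55088053-55088082).
Hspd1/Hspe1: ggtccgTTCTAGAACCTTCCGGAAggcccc

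The promoters of Lonp1 and Trap1 are shown because both genes fell. Capitals mark CACGTG, the E-box, and TGACGT, the core of the cAMP response element, on either strand. Both are printed on the minus strand, on which the genes lie (Lonp1 at chr17:56626885-56626959, Trap1 at chr16:4077830-4077877).
Lonp1: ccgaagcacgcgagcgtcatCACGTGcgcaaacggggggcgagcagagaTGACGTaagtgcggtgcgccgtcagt
Trap1: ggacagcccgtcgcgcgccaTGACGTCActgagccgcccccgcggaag

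RefSeq's table held 8 promoter windows, from 250 bases before to 50 after a start, for 7 of the 9 members (Hspd1, Hspe1, Trap1, Lonp1, Clpp, Clpx and Yme1l1). The motifs were searched on both strands, overlapping matches included, and were chosen with the sequences in view. TTCNNGAA was found in windows of Hspd1, Hspe1 and Clpp, and in 8.52% of all 32851 windows. GAANNTTC was found at Hspd1 and Hspe1 and in 7.86% of all windows. TGCAAT, the core of the element that CHOP binds, was found once between Hspd1 and Hspe1 (positions 55087949 to 55087954), within both of their windows, and in 8.40% of all windows. CACGTG was found at Lonp1 and at the outer Hspd1 start, and in 7.15% of all windows. TGACGT was found at Lonp1 and, as a palindrome, at Trap1, and in 7.51% of all windows. TGATGNAA, the C/EBP-ATF response element read by ATF4, was found in 0 of the 8 windows and in 3.97% of all windows. These matches describe letters in the windows only.

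Across the 9 members, Hspa9 rose in osteoclast-conditioned medium and Hspd1, Trap1, Lonp1 and Afg3l2 fell, all by small amounts. The level of Hspa9 was 13.7% higher, and the percent changes of the 4 genes that fell lay between -7.95 and -5.51. Hspe1, Clpp, Clpx and Yme1l1 were not called. A gene was called when its Benjamini-Hochberg adjusted p, from edgeR's quasi-likelihood test over the 10729 genes that passed the filter, was under 0.05. By that rule 5 of the 9 were called, against 30.5% of all tested genes; 1 of 9 was higher, against 15.7% of all, and 4 of 9 were lower, against 14.8%. The median log2 fold change was -0.07 over the members and -0.01 over all tested genes, and the median absolute change was 0.08 and 0.09. Control and conditioned samples were fully apart for 4 members, against 28.2% of all tested genes: 1 of 9 with the conditioned samples higher (Hspa9), against 15.2% of all, and 3 of 9 with them lower (Trap1, Lonp1 and Afg3l2), against 12.9% of all. The number of members called was 2 without osteoclast-conditioned replicate 1, and 3 without control replicate 4 or without osteoclast-conditioned replicate 3 or 4. Hspa9 and Afg3l2 were called under every alternative.

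**Figure D1:**
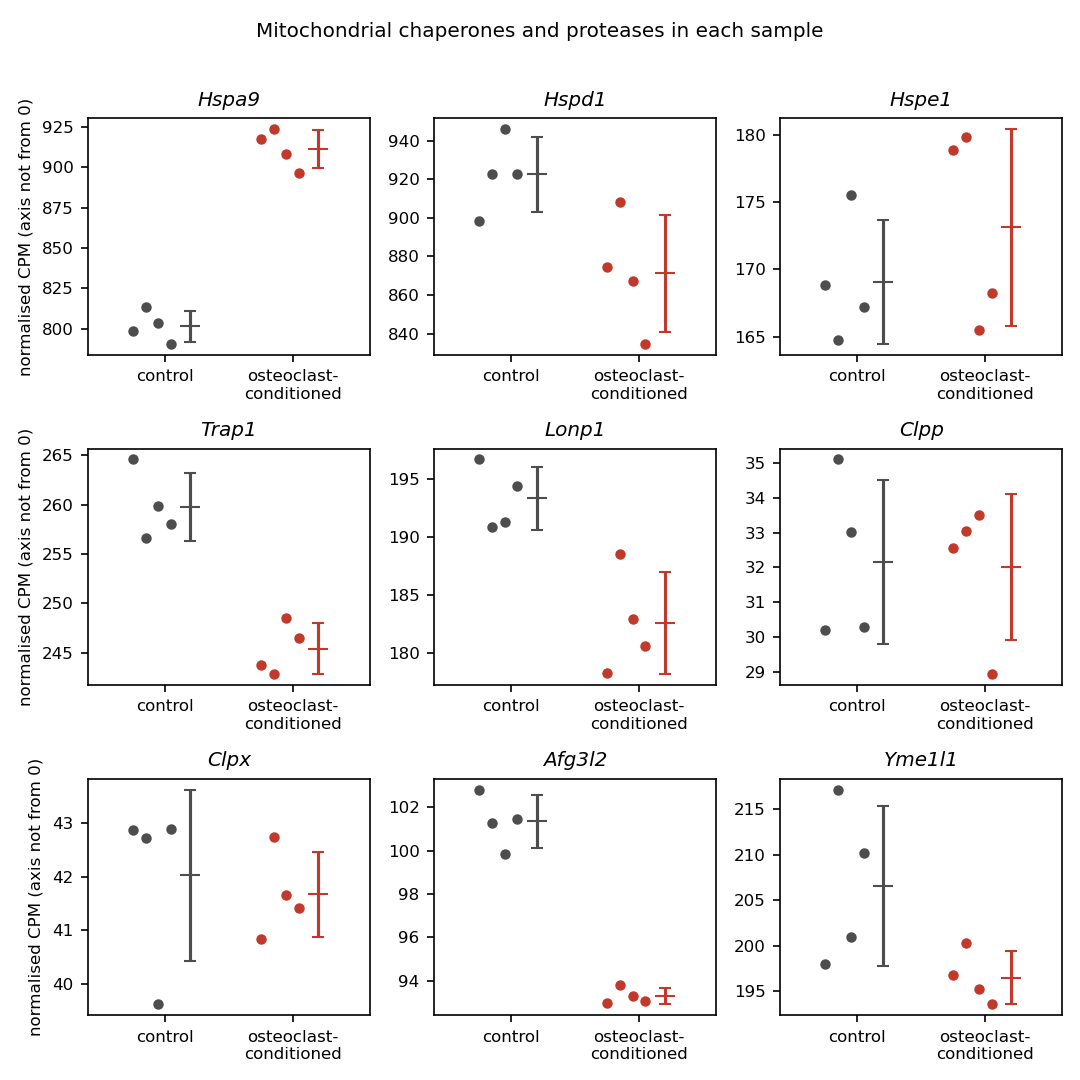
Normalised CPM of each member (y axis, not starting at 0) in the 4 control and 4 osteoclast-conditioned samples; points are samples, and bars give the mean ± SD. Hspa9 is higher in all 4 conditioned samples, Trap1, Lonp1 and Afg3l2 are lower in all 4, and the other 5 genes overlap between media.

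Hspa9 codes for mortalin, the matrix member of the heat shock protein 70 family, which pulls proteins through the inner membrane and folds them. It lies on chromosome 18 (ENSMUSG00000024359, 34937414 to 34954357). The control samples, replicates 1 to 4, had 798, 813, 803 and 790.5 normalised CPM. The osteoclast-conditioned samples had 918, 924, 908 and 897. Every conditioned sample was above every control sample, and the gap between the groups was wider than the spread within either. The means were 801 ± 9.63 and 912 ± 11.7 (SD, n = 4 each), so conditioned minus control was 0.19 on the log2 scale (SE 0.02, edgeR adjusted p = 7.66e-07). Over the 18 alternatives the change stayed between 0.16 and 0.20.

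Hspd1 had 898, 923, 946 and 923 normalised CPM in control medium. In conditioned medium it had 874, 908, 868 and 835. Conditioned replicate 2 lay above control replicate 1, so the groups overlapped, while the other conditioned samples lay below all controls. The means were 922 ± 19.4 and 871 ± 30.1 (SD, n = 4 each), so conditioned minus control was -0.08 on the log2 scale (SE 0.03, edgeR adjusted p = 0.0214). The call was lost without control replicate 3 (adjusted p = 0.0614) or 4 (0.0623), and without conditioned replicate 1 (0.0587), 3 (0.0642) or 4 (0.0836), where all 18 alternatives ran from 0.00216 to 0.0836. Of the 50-base stretches in Hspd1 transcripts, 42.1% also occur in transcripts of other genes, mostly the processed copy Hspd1-ps3. The table holds 0 of the 5 annotated processed copies, and how such reads were assigned is not given in the sources used here, so Hspd1's level is uncertain.

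Hspe1 was not called. It had 169, 165, 176 and 167 normalised CPM in control medium and 179, 179.9, 165 and 168 in conditioned medium. The groups overlapped: conditioned replicates 1 and 2 were above all controls, and 3 and 4 lay among them. The log2 change was 0.04 (SE 0.03, edgeR adjusted p = 0.431). For Hspe1, 22.8% of the 50-base stretches occur in other genes, and 0 of its 6 annotated processed copies are in the table.

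Trap1 codes for the mitochondrial member of the heat shock protein 90 family (ENSMUSG00000005981, chromosome 16, 4039971 to 4077827). It had 265, 257, 259.9 and 258 normalised CPM in control medium. In conditioned medium it had 244, 243, 249 and 247. All 4 conditioned samples lay below all 4 controls. The means were 259.8 ± 3.48 and 245 ± 2.59 (SD, n = 4 each), so conditioned minus control was -0.08 on the log2 scale (SE 0.03, edgeR adjusted p = 0.0173). The call was lost without control replicate 1 (adjusted p = 0.0774) and without conditioned replicate 1 (0.0615) or 2 (0.0609), where all alternatives ran from 0.00252 to 0.0774.

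Lonp1 codes for the soluble matrix protease that degrades oxidised and misfolded proteins (ENSMUSG00000041168, chromosome 17, 56614297 to 56626887). It had 197, 191, 191 and 194 normalised CPM in control medium and 178, 189, 183 and 181 in conditioned medium. The lowest control, 190.8, was above the highest conditioned sample, 188.5, so the groups were apart by a narrow margin. The means were 193 ± 2.75 and 183 ± 4.42 (SD, n = 4 each), so conditioned minus control was -0.08 on the log2 scale (SE 0.03, edgeR adjusted p = 0.0256). The call was lost without control replicate 1 (adjusted p = 0.0959) or 4 (0.0744), and without conditioned replicate 1 (0.113), 3 (0.0588) or 4 (0.0573), where all alternatives ran from 0.00477 to 0.113. The printed E-box and TGACGT lie 36 and 7 bases before the Lonp1 start site.

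Clpp and Clpx form one machine: Clpx is the ATPase that unfolds matrix substrates and Clpp the barrel that cuts them. Clpp (ENSMUSG00000002660, chromosome 17, 56990305 to 56996188) had 30.2, 35.1, 33.0 and 30.3 normalised CPM in control medium and 32.6, 33.1, 33.5 and 28.9 in conditioned medium. Clpx (ENSMUSG00000015357, chromosome 9, 65294260 to 65330658) had 42.9, 42.7, 39.6 and 42.9 in control medium and 40.8, 42.8, 41.7 and 41.4 in conditioned medium. Both sets of samples overlapped. The log2 fold changes were -0.01 for Clpp (SE 0.06) and -0.01 for Clpx (SE 0.04), with edgeR adjusted p of 0.918 and 0.828. The direction for Clpp is not set by these data, since it turned positive without control replicate 2 (0.04) or 3 (0.00) or without conditioned replicate 4 (0.04).

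Afg3l2 and Yme1l1 are ATP-driven proteases of the inner membrane, Afg3l2 facing the matrix and Yme1l1 the intermembrane space. Afg3l2 (ENSMUSG00000024527, chromosome 18, 67404764 to 67449172) had 103, 101, 99.8 and 101 normalised CPM in control medium. In conditioned medium it had 93.0, 93.8, 93.3 and 93.1. The conditioned samples lay close together and all below the controls. The means were 101 ± 1.22 and 93.3 ± 0.379 (SD, n = 4 each), and the log2 change of -0.12 (SE 0.03, edgeR adjusted p = 0.00389) was the largest fall among the members. It stayed between -0.14 and -0.11 over the 18 alternatives.

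Yme1l1 (ENSMUSG00000026775, chromosome 2, 23156369 to 23199260) had 198, 217, 201 and 210.2 normalised CPM in control medium and 197, 200.3, 195 and 194 in conditioned medium. Conditioned replicate 2 lay above control replicate 1, and the other conditioned samples lay below all controls. The log2 change was -0.07 (SE 0.03, edgeR adjusted p = 0.0639). The gene passed the threshold when counts were scaled by totals only (-0.10, adjusted p = 0.0130) or by upper quartile (-0.08, 0.0304), and without control replicate 1 (0.0366) or 3 (0.0409), where all alternatives ran from 0.0130 to 0.204.

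Per kilobase of the transcript with the longest coding part, the order of levels in control medium was Hspd1 (381 ± 8.00 CPM per kilobase), Hspa9 (263 ± 3.16), Hspe1 (218 ± 5.96), Trap1 (112 ± 1.5), Lonp1 (65.5 ± 0.932), Yme1l1 (43.9 ± 1.86), Afg3l2 (32.8 ± 0.395), Clpp (32.7 ± 2.40) and Clpx (14.6 ± 0.556; SD, n = 4). Afg3l2 and Clpp did not differ beyond their spread; every other pair of neighbours did on this scale. In conditioned medium, Hspd1 (359.6 ± 12.4) and Hspa9 (299 ± 3.85) came nearer to each other. The order rests on the length used: per kilobase of all annotated exons, Afg3l2 is last, and Clpp (26.3 ± 1.93) comes before Yme1l1 (25.8 ± 1.09) with no difference beyond their spread. The 9 members summed to between 2684 and 2813 normalised CPM, and the groups overlapped. Hspd1 and Hspa9 made up 62.8 to 63.6% of that sum in control and 64.5 to 65.1% in conditioned medium.

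Within each library, counts of partner genes were compared as log2 ratios, which do not depend on how libraries are scaled. The log2 ratio of Hspa9 to Hspd1 was -0.17, -0.18, -0.24 and -0.22 in the control samples and 0.07, 0.02, 0.07 and 0.10 in the conditioned samples. The sign separated the media without exception among the 8 samples: Hspd1 had more counts in every control and Hspa9 in every conditioned sample. The means were -0.20 ± 0.03 and 0.07 ± 0.03 (SD, n = 4 each), a difference of 0.27.

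The log2 ratio of Hspd1 to Hspe1, the genes of the shared promoter printed above, was 2.41, 2.49, 2.43 and 2.46 in control and 2.29, 2.34, 2.39 and 2.31 in conditioned medium. Every conditioned value was below every control value, and the mean differed by -0.12 (2.45 ± 0.03 against 2.33 ± 0.04, SD, n = 4 each). Permuting all assignments of 4 against 4 samples (exact permutation, two-sided), p was 0.0286 for both pairs, which is the smallest possible, and 0.0714 after adjustment over the 5 ratios, so neither passed 0.05.

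The other 3 ratios overlapped between media. The log2 ratio of Clpp to Clpx differed by 0.01 (-0.39 ± 0.13 against -0.38 ± 0.09), that of Afg3l2 to Yme1l1 by -0.05 (-1.03 ± 0.07 against -1.07 ± 0.02) and that of Lonp1 to Clpp by -0.08 (2.59 ± 0.12 against 2.51 ± 0.09; SD, n = 4 each). Their exact permutation p were 1, 0.257 and 0.314, and their adjusted p were 1, 0.393 and 0.393.

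**Figure D2:**
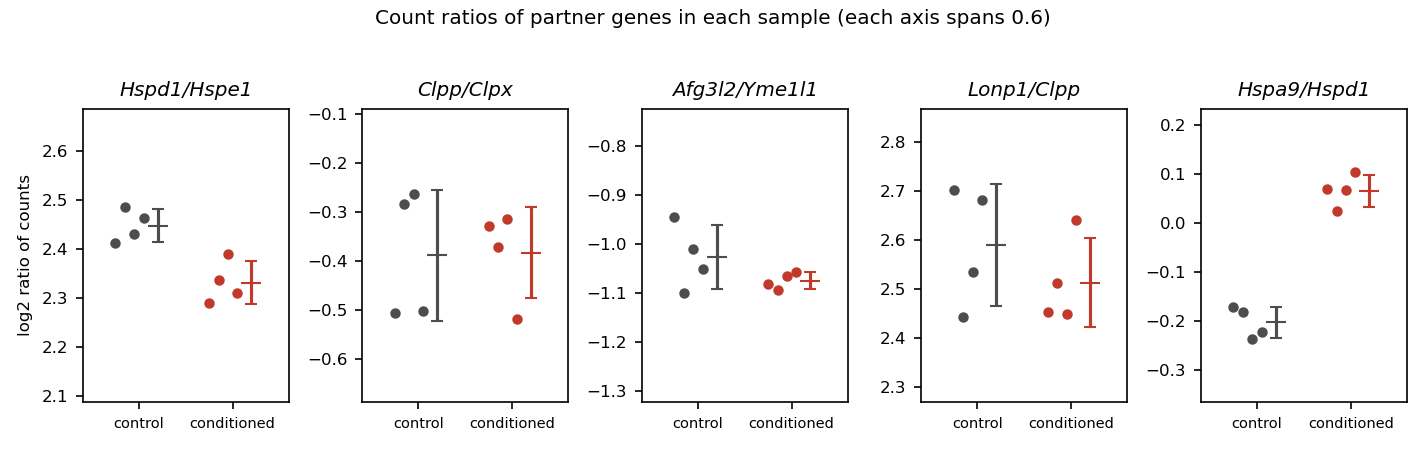
Log2 ratio of counts (y axis, each spanning the same range) for 5 pairs of members in the control and osteoclast-conditioned samples; points are samples, and bars give the mean ± SD. Hspa9/Hspd1 and Hspd1/Hspe1 separate the media, and the other 3 pairs overlap.

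As a description of likeness, all genes averaging 5 CPM or more were ranked by Pearson correlation of log2 CPM with Hspd1 over the 8 samples, whose points share medium and library. Of 9031 genes, Psma6, Knl1 and St13 came closest to Hspd1 (r of 0.99, 0.98 and 0.97), while Hspe1 ranked at 4034 (r = 0.14). Trap1, Lonp1, Afg3l2 and Yme1l1 had r of 0.58 to 0.75 with Hspd1, and Hspa9 had -0.67. For Lonp1, the closest genes were Rad51b, Dtymk and Thoc7 (r of 0.98, 0.98 and 0.97). Among the members, Afg3l2 came closest to Lonp1 (r = 0.91, rank 44), and Trap1 followed (r = 0.83, rank 333).

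Of 12 tested regulators of the stress responses, 5 rose (41.7%, against 15.7% of all tested genes) and 0 fell (against 14.8%). Atf5 rose from 31.5 ± 2.09 to 63.9 ± 3.57 normalised CPM (SD, n = 4 each; log2 fold change 1.02, SE 0.05, edgeR adjusted p = 7.14e-16). Ddit3 rose by 0.64 (SE 0.06) and Atf4 by 0.23 (SE 0.03), and neither overlapped between media. Of Ddit3, 54.3% of the span and 10.1% of the exonic bases are shared with other genes of the table, Mars among them. Cebpb rose by 2.46 (SE 0.30) on a total of 159 counts, with 60.4% of its span inside Tmem189. Dele1, which relays mitochondrial stress to the integrated stress response and was named after its value was seen, rose by 0.19 (SE 0.03). A second, short gene ID with the symbol Ddit3 was at 0 in all samples.

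All 7 mitochondrial enzymes listed among ATF4 targets rose, against 15.7% of all tested genes, with a median log2 fold change of 0.31. The list was drawn up with results of these data known, so its direction is no independent evidence. Aldh1l2, a folate enzyme, changed most, from 7.02 ± 0.843 to 27.9 ± 2.13 normalised CPM (SD, n = 4 each). Mthfd2, also a folate enzyme, rose by 0.52 (SE 0.03), and Pycr1, which makes proline, by 0.40 (SE 0.04). Among the chaperones and proteases the highest log2 fold change was the 0.19 of Hspa9, close to that of Mthfd1l (0.19, SE 0.03), the lowest of the 7 enzymes and named for that after its value was seen.

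**Figure D3:**
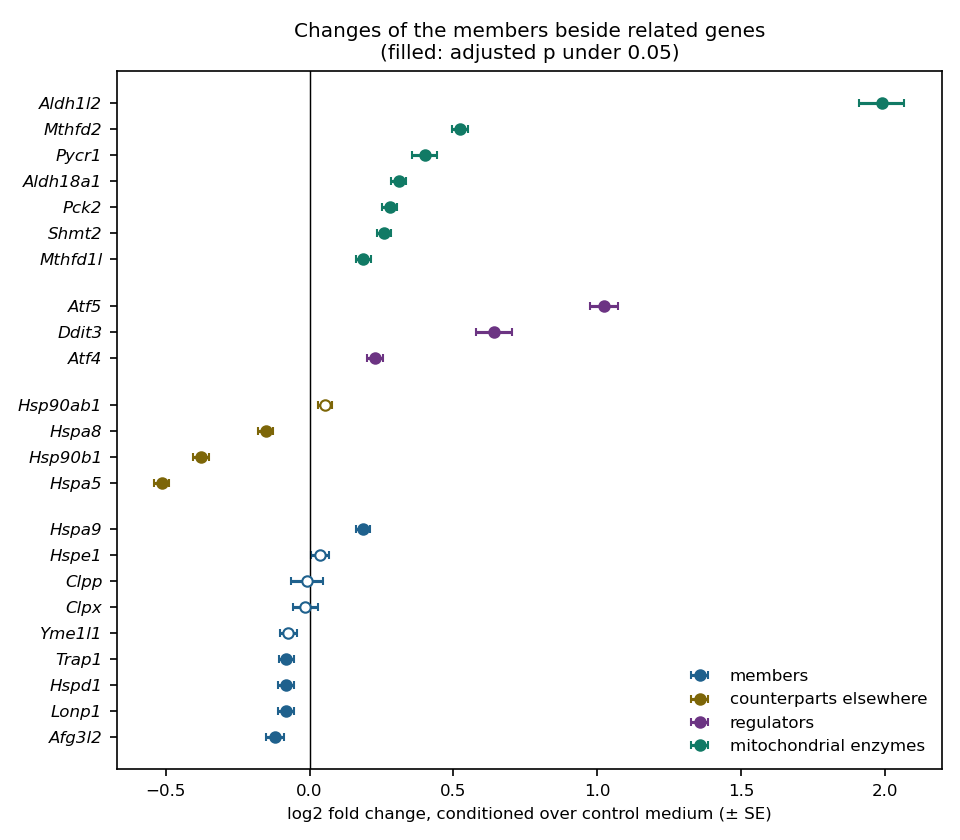
Log2 fold change of osteoclast-conditioned over control medium (x axis, ± SE) for the 9 members, 4 chaperones of other compartments, 3 regulators and 7 mitochondrial enzymes; filled points have an edgeR adjusted p under 0.05. The members lie between -0.12 and 0.19, and the regulators and enzymes between 0.19 and 1.99.

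The members' relatives in other compartments were read beside them. Hspa5, the endoplasmic reticulum relative of Hspa9, fell by 0.51 (SE 0.03), from 778 ± 11.3 to 545 ± 14.1 normalised CPM (SD, n = 4 each). Hspa8, the cytosolic relative, fell by 0.15 (SE 0.03), so of these 3 genes only Hspa9 rose. Hsp90b1, the endoplasmic reticulum relative of Trap1, fell by 0.38 (SE 0.03), while cytosolic Hsp90ab1 had 0.05 (SE 0.03, edgeR adjusted p = 0.106). Over the whole list of 14, 2 were higher (Lonp2 and Cct4, named after their values were seen; 14.3%, against 15.7% of all tested genes) and 5 lower (35.7%, against 14.8%). The number higher moved with the settings: it was 0 with total counts only (7 lower) or at an adjusted p under 0.01, 0 without control replicate 1 or 4 or without conditioned replicate 2 or 3, 1 without control replicate 3 or with upper quartile, DESeq2 or thinning, 3 with limma-voom and 4 without conditioned replicate 4.

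Of 9 tested co-chaperones and other folding factors, 1 rose and 1 fell (11.1% each, against 15.7% and 14.8% of all tested genes). Clpb, a mitochondrial disaggregase, rose from 67.2 ± 0.949 to 79.5 ± 2.78 normalised CPM (SD, n = 4 each; log2 fold change 0.24, SE 0.04), with no overlap. Ppif, the matrix cyclophilin, fell by 0.11 (SE 0.04, edgeR adjusted p = 0.0417), with overlap between media, and was not called without control replicate 1 or 2 or without conditioned replicate 1 or 4. Grpel1, the nucleotide exchange factor of Hspa9, had -0.04 (SE 0.04), and Dnaja3, its J-domain partner, had 0.05 (SE 0.03), with edgeR adjusted p of 0.448 and 0.294; 58.8% of Dnaja3's span is shared with Coro7 and Vasn.

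Of 16 other tested proteases and their partners, 0 rose and 5 fell, with a median log2 fold change of 0.01. The share called, 31.2%, was near the 30.5% of all tested genes, of which 15.7% were higher and 14.8% lower. Leaving out samples, 3 fell without control replicate 1 or without conditioned replicate 2 or 3. Htra2, a protease of the intermembrane space, fell by 0.22 (SE 0.04), with 51.1% of its span shared with Loxl3 and Aup1. Parl, the inner membrane rhomboid protease, fell by 0.18 (SE 0.04), and Oma1, the stress-activated protease that cleaves Dele1 protein, by 0.22 (SE 0.08, edgeR adjusted p = 0.0488), close to the threshold and with overlap between media. Phb and Pmpca, named after their values were seen, fell by 0.13 and 0.09 (edgeR adjusted p of 0.00219 and 0.0435). Spg7, the partner subunit of Afg3l2, and its relative Afg3l1, named after its value was seen, were at 0 counts in all samples. Both lie wholly within the span of Gm20388, and the part of this in their zeros was not tested, so the partner of Afg3l2 could not be compared with it.

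Of 23 tested import genes, 0 rose (against 15.7% of all tested genes) and 6 fell (26.1%, against 14.8%), among them Timm9 (log2 fold change -0.22, SE 0.05), Tomm5 (-0.20, SE 0.04) and Timm8b (-0.19, SE 0.07). Their median was -0.05. The count of falls was 9 when scaled by total counts only. It was 4 of 26 with DESeq2, 4 of 25 without a filter and 4 of 23 at an adjusted p under 0.01. Leaving out 1 sample gave from 4 to 7 falls, with 4 without control replicate 1 or 4 or conditioned replicate 3 or 4. Scaling by total counts called 40.7% of all called genes higher, against 51.6% with TMM scaling, and moved the median log2 fold change of all genes to -0.03.

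**Figure D4:**
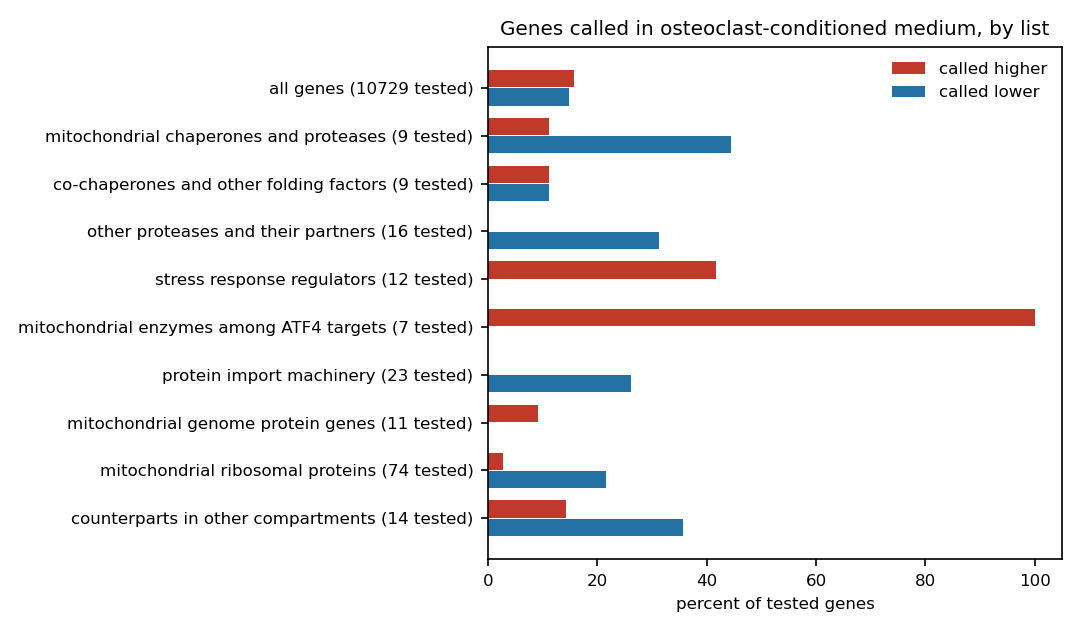
Percent of tested genes (x axis) called higher or lower in osteoclast-conditioned medium at an edgeR adjusted p under 0.05, for all genes and each list. All 7 mitochondrial ATF4-target enzymes are called higher, and of the 9 members 1 is called higher and 4 lower.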

How the data were processed

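Per the labels, RNA from 8 samples was extracted with RNeasy Plus Mini and made into SureSelect HS2 libraries. The submitters' processing notes list STAR 2.7.5a, featureCounts 2.0.1 and mm10. The deposited values are raw counts per Ensembl gene ID; the annotation, strand setting, treatment of multiply mapped reads and use of molecular barcodes are not given in the sources used here. Columns were matched by header to the sample descriptions, and 0 were unmatched. Symbols, positions and lengths came from GENCODE M21 (GRCm38, the assembly behind mm10), which matched 21817 of 21859 IDs. Of 226 list memberships, 224 matched.

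The test on these counts was edgeR 4.0.16 run in R 4.3.3 (filterByExpr, TMM, robust glmQLFit, glmQLFTest, medium as the only term), with Benjamini-Hochberg adjustment over 10729 genes. Normalised CPM are TMM-scaled. SEs are the absolute change over the root of F. Ratios used exact permutation over 70 assignments. The fit was tested on simulated data. Ratios, likeness and figures were made with scipy 1.17.1, pandas 2.3.3 and matplotlib 3.10.9 under Python 3.11.15. Alternatives were 3 other scalings, other filters (none, or a mean of at least 50 counts), DESeq2 1.42.0, limma-voom (limma 3.58.1), no robust estimation, the replicate block, thinning, a threshold of 0.01 and leaving out each sample.

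The members, lists and tests were chosen with earlier results of these data known. Named genes were all members and, per other list, the 3 called genes with the largest change, plus 12 chosen by role; others are marked as named after their values were seen.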

Additional observations from a re-analysis of the deposited data

Results flagged for a closer look

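In 78 groups of 4 samples (39 genes and ratios in each medium), the highest or lowest sample was compared with its nearest neighbour by Dixon's ratio, the gap divided by the group's range. In 6 groups the ratio passed the 95% critical value for 4 samples, where chance gives about 3.9. Of the members, only Clpx had such a case: control replicate 3 had 39.6 normalised CPM against 42.7 to 42.9 in the other controls (ratio 0.948). Control replicate 3 was also lowest for Pycr1 (39.7 against 42.9 to 43.4, ratio 0.864) and Timm8b (12.6 against 13.4 to 13.5, ratio 0.916). Mthfd2 was highest in control replicate 1 (199.8 against 188 to 190.1, ratio 0.835) and Dnaja3 in control replicate 2 (111 against 103 to 104, ratio 0.844). The mitochondrial gene mt-Cytb was highest in osteoclast-conditioned replicate 4, at 1842 against 1442 to 1489 (ratio 0.881).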

How the results depend on the processing

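Every alternative kept the direction of all members except Clpp, and 0 genes called under the chosen settings were called in the opposite direction elsewhere. An adjusted p under 0.01 called 2147 genes in all, 2 members, 1 co-chaperone, 3 other proteases, 0 mitochondrial genome genes and 6 mitochondrial ribosomal protein genes. The co-chaperones called were also 1 with DESeq2, limma-voom or thinning, and the other proteases 3 with DESeq2, limma-voom, thinning or no robust estimation. DESeq2 called 10 mitochondrial ribosomal protein genes, and scaling by total counts 24. For the mitochondrial genome the count was 2 with a mean of at least 50 counts, 4 with DESeq2 and 5 with limma-voom or no robust estimation. Yme1l1 passed the threshold with total counts only (-0.10) or upper quartile (-0.083). The cause was not tested.

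Replicate numbers are shared between the media, but the deviations of same-numbered samples correlated by only 0.04 on average (from -0.05 to 0.14), and 3 of 8 samples correlated best with their own number, so the numbers were not taken as pairs. The replicate block called 3446 genes and 5 mitochondrial genome genes, and the members called were the same 5.

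Leaving out 1 sample gave from 2 to 5 called members, 1 to 2 co-chaperones, 3 to 4 other proteases, 0 to 1 mitochondrial genome genes and 10 to 18 mitochondrial ribosomal protein genes. The log2 fold changes ran from -0.10 to -0.061 for Hspd1, -0.088 to -0.069 for Trap1, -0.10 to -0.069 for Lonp1, -0.090 to -0.048 for Yme1l1 and -0.034 to 0.042 for Clpp. The log2 ratio of Clpp to Clpx ran from -0.034 to 0.050.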

Other observations

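Of 74 tested genes for mitochondrial ribosomal proteins, which build the organelle's own translation machinery, 16 fell (21.6%, against 14.8% of all tested genes) and 2 rose (2.7%, against 15.7%), with a median log2 fold change of -0.05 against -0.01 over all tested genes, and the difference from other genes was not tested. Scaled by total counts only, 23 fell and 1 rose. Leaving out 1 sample, 18 in all were called without control replicate 2, 16 without conditioned replicate 4, 13 without control replicate 1, 10 without control replicate 3 or conditioned replicate 1, 11 without conditioned replicate 2 or 3, and 12 without control replicate 4. Mrpl24 fell from 27.8 ± 0.928 to 22.1 ± 0.422 normalised CPM (SD, n = 4 each; log2 fold change -0.33, edgeR adjusted p = 1.88e-05). Mrpl16 fell by 0.23 and Mrps36 by 0.21, the latter with overlap between media.

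Of 11 tested protein genes of the mitochondrial genome, 10 had a positive log2 fold change, against 5129 of all 10729 tested genes. Their median log2 fold change was 0.32, against -0.01 over all tested genes. Control and conditioned samples were fully apart for 5 of the 11, against 28.2% of all tested genes. The 1 called (9.09%, against 30.5% of all tested genes, of which 15.7% were higher) was mt-Cytb (0.44, SE 0.12, edgeR adjusted p = 0.0356). Its level was 1154 ± 138 normalised CPM in control and 1559 ± 189 in conditioned medium (SD, n = 4 each). The number called higher moved both ways with the settings. It was 5 with limma-voom or without robust estimation, 4 with DESeq2 and 2 when genes averaging under 50 counts were dropped. It was 0 at an adjusted p under 0.01, and 0 without control replicate 1, 2 or 4 or without osteoclast-conditioned replicate 2 or 3, and without control replicate 2 the 1 gene called was lower. Levels within this genome were very unequal, as 3 genes named after their values were seen show: mt-Co1 had 4501 ± 417 normalised CPM in control medium, while mt-Co2 had 0.670 ± 0.201 and mt-Co3 1.12 ± 0.322, and how reads shared with nuclear copies were counted is not given in the sources used here.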
